A study of Arabidopsis thaliana with 74 samples.

Results

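The heterochromatin that flanks the centromere of chromosome 1 was described through 102 protein-coding genes, chosen as the loci AT1G36000 to AT1G47000 whose identifier ends in 0 or 5 and that reached at least 1 CPM (a count relative to the size of its library) in at least 2 libraries. They were 102 of 187 such loci in the table and of 19383 genes that passed the same filter in the whole series. Of the 85 loci left out, 39 had 0 counts in every library. The members lay on chromosome 1 between 13432418 and 17238185 (TAIR10.1), a span of 3.806 Mb. AT1G36005 and AT1G43260 passed the filter most narrowly, with a second-highest library at 1.01 and 1.05 CPM, and the first locus left out, AT1G43605, had its second-highest library at 0.887 CPM. No limit on CPM in a given group was applied, but a gene that is silent in most lines could pass only through the lines in which it was active.

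RNA-seq libraries had been made from rosettes harvested 27 days after sowing. The 36 epiRIL libraries came from epigenetic recombinant inbred lines, Columbia lines with a wild-type DDM1 gene that descend from a cross between wild type and the ddm1-2 mutant, a backcross to wild type and repeated selfing. The 36 epiHybrid libraries came from the F1 plants of these same epiRILs, used as fathers, with msCol mothers, and the 2 msCol libraries (12 and 16) came from the male-sterile maternal lines, which carry the ms1 mutation on a segment of the accession Ler. Each line was 1 library of rosettes pooled over 3 cultivation experiments, so plants of a line could not be compared, and the replicates are families, each made of 1 epiRIL and the epiHybrid with the same line number. All plants had been grown untreated, and the 36 families had been picked by the authors for their leaf area. The ddm1-2 mutant itself and wild-type Columbia were not analysed here.

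Pericentromeric DNA is rich in transposons and densely methylated at CG sites. DDM1 is a chromatin remodeller that gives DNA methyltransferases access to heterochromatin. DNA that has lost methylation in a ddm1 mutant can stay unmethylated over many generations after DDM1 is restored, and genes and transposons that methylation silences can then be inherited as active epialleles. Recombination is rare around centromeres, so long stretches there tend to be inherited as a unit.

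Library totals were 38130406 to 42206920 counts. The leaf markers RBCS1A, CAB1, RCA and LHCA1 had at least 2598 CPM in all 74 libraries, the seed markers CRA1, OLEO1 and SESA3 at most 0.151 CPM and the root-hair genes EXPA7, COBL9 and RHD6 at most 0.235 CPM, while the floral organ genes AP3, PI, AG and AP1 lay between 0.624 and 14.3 CPM. A further root marker, PYK10, went the other way, at 5.41 to 31.4 CPM and above 1 CPM in all 74 libraries. DDM1 was detected in every epiRIL (3.41 to 13.2 CPM). Some libraries stood apart. The epiHybrids 340 and 368 had a median correlation with the other libraries of 0.938 and 0.928 over all tested genes, against 0.951 or more for the other 72. At 6 genes whose level differs between msCol and epiRILs, chosen after their values had been seen, each library was placed on a scale from 0 (median epiRIL) to 1 (mean msCol), and the median over the 6 genes was taken. The library labelled epiRIL 12 lay at 0.344 and the library labelled epiHybrid 12 at 0.0111, and those labelled epiRIL 568 and epiHybrid 568 lay at 0.420 and 0.0148. These 4 libraries went against their labels. Apart from these and families 79 and 503, the epiRILs lay between -0.0831 and 0.144 and the epiHybrids between 0.165 and 0.549. The epiHybrid of family 79 lay at 0.882 and that of family 503 at 0.235. In bulk rosettes, a change in the number of cells of a type and a change of RNA per cell cannot be told apart.

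On/off expression among the epiRILs was described by limits on CPM. A gene was called on/off when at least 2 epiRILs had 1 CPM or more and at least 2 had 0.1 CPM or less. Of the 102 members, 12 were on/off, beside 1.95% of all 19383 genes. A gap of at least 1 on the log2(CPM + 1) scale between neighbouring epiRILs, with 2 or more lines on each side, was seen in 9 members, beside 1.01% of all genes, and 8 members met both descriptions. These are descriptions of the 36 lines and were not tested. In msCol, 9 of the 12 on/off members had 0 counts in both libraries and 11 had at most 3 counts in each. A count of 3 in msCol 12 or 16 corresponds to 0.0757 or 0.0769 CPM, which is the level that a count of 0 allows. No member was on in both msCol libraries and off in an epiRIL, whereas 13 were off in both msCol libraries and on in at least 1 epiRIL. These counts in msCol were not made over all genes, so whether they are particular to the members is not known.

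Of the on/off members, 7 formed a block that was active in the same epiRILs. Cut at their widest gap, AT1G36020, AT1G36240, AT1G42680, AT1G43260 and AT1G43815 were high in exactly the 7 lines 50, 79, 128, 467, 503, 574 and 579, and AT1G36230 and AT1G43145 in the same lines except 128. The block reached from 13433919 to 16584556 on chromosome 1 (3.15 Mb) and across the centromere. Of the 58 members from its first to its last gene, 47 were neither on/off nor split into 2 levels, so the active genes were interspersed among members without such a split. To show the DNA in which this switch was seen, the 250 bases before the annotated start are printed for 4 block genes, 5′ to 3′ on the gene's strand, from RefSeq (TAIR10.1) and with CG dinucleotides, the sites of CG methylation, in capitals. AT1G36020 lies on the minus strand (chr1:13434341-13434590), AT1G36230 on the minus strand (chr1:13614052-13614301), AT1G36240 on the plus strand (chr1:13614640-13614889) and AT1G43815 on the plus strand (chr1:16581834-16582083).
AT1G36020: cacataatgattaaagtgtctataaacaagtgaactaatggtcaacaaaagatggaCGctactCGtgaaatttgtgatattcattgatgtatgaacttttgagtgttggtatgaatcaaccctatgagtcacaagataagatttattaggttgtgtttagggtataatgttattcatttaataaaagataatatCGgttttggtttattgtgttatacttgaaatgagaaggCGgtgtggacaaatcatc
AT1G36230: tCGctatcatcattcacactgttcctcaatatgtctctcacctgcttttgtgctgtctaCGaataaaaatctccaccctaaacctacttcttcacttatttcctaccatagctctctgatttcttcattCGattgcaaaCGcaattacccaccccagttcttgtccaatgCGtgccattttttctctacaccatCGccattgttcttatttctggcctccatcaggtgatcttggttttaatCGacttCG
AT1G36240: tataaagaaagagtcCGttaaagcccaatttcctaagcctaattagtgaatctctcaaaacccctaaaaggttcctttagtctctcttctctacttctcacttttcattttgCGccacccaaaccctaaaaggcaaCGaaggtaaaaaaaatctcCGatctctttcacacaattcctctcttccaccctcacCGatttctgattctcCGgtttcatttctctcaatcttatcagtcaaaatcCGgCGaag
AT1G43815: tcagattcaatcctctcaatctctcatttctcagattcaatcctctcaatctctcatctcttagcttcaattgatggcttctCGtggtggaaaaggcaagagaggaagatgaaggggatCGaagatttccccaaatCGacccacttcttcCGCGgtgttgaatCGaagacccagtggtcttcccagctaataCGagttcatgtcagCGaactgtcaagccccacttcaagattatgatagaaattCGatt
AT1G36230 and AT1G36240 are divergent neighbours whose annotated starts are separated by 838 bases, and their windows lie in that stretch. The windows of the 7 block genes held 0 to 9 CG dinucleotides (median 4), with 0 in AT1G43145, 1 in AT1G42680, 4 in AT1G36020 and AT1G43260, 8 in AT1G36230 and AT1G36240 and 9 in AT1G43815. The median was 4 over the members and 5 over all 19382 genes with a window. The letters TATAAA were looked for on both strands and occurred in 2 of the 7 windows, those of AT1G36020 and AT1G36240, in 47.1% of the members' windows and in 45.5% of all windows. DNA methylation was not part of the files used here.

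AT1G36240 had the highest level of the block. It encodes a ribosomal protein of the L7Ae/L30e family, a component of the large ribosomal subunit. Its level was 47.3 CPM in epiRIL 50, 38.04 in 79, 35.6 in 128, 33.8 in 467, 29.8 in 503, 33.0 in 574 and 42.2 in 579. Among the 29 other epiRILs, 26 had 0 counts and the highest, line 469, had 0.727 CPM, and both msCol libraries had 0 counts. The 7 active lines and all others were thus far apart, with nothing in between. AT1G77940 and AT3G18740, which carry the same annotated product, were expressed in every library, at a median of 119 and 100 CPM among epiRILs. The best other match of AT1G36240 in the genome had 88.3% identity over 214 bases.

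AT1G43815, an uncharacterized gene, was the second-highest gene of the block. It stood at 15.6 CPM in epiRIL 50, 14.7 in 79, 14.2 in 128, 13.7 in 467, 11.2 in 503, 14.1 in 574 and 13.2 in 579, against at most 0.194 CPM in the other 29 lines and 0 counts in msCol. The active lines differed little among themselves. Close copies (at least 95% identity) cover 31.0% of its exons, so its count is less certain.

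AT1G36020, annotated as a member of the DEAD/DEAH-box RNA helicase family, had 4.77 CPM in epiRIL 50, 4.19 in 79, 6.24 in 128, 6.24 in 467, 4.46 in 503, 5.90 in 574 and 4.95 in 579, and at most 0.218 CPM in the other lines. AT1G42680, annotated as a P-loop nucleoside triphosphate hydrolase, ranged from 2.24 to 4.26 CPM in the 7 lines and reached at most 0.146 CPM elsewhere. A close copy covers 37.6% of its exons. AT1G43260, of the hAT transposon superfamily, was weakly expressed at 0.485 to 1.04 CPM in the 7 lines, with 0 counts in all 29 others and at most 2 counts in msCol, and only lines 79 and 128 passed 1 CPM. AT1G36005, a member next to AT1G36020 that did not meet the on/off rule, showed the same lines at 0.347 to 1.07 CPM, against at most 0.0271 CPM in the rest.

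AT1G36230 and AT1G43145, both uncharacterized, had 0 counts in epiRIL 128. AT1G36230 had 1.51 CPM in line 50 and 4.80 to 6.27 CPM in lines 79, 467, 503, 574 and 579. AT1G43145 had 3.457 to 4.502 CPM in the 6 lines that expressed it. In line 128 they were therefore silent although AT1G36240, the divergent neighbour of AT1G36230, was at 35.6 CPM in the same library.

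**Figure D1:**
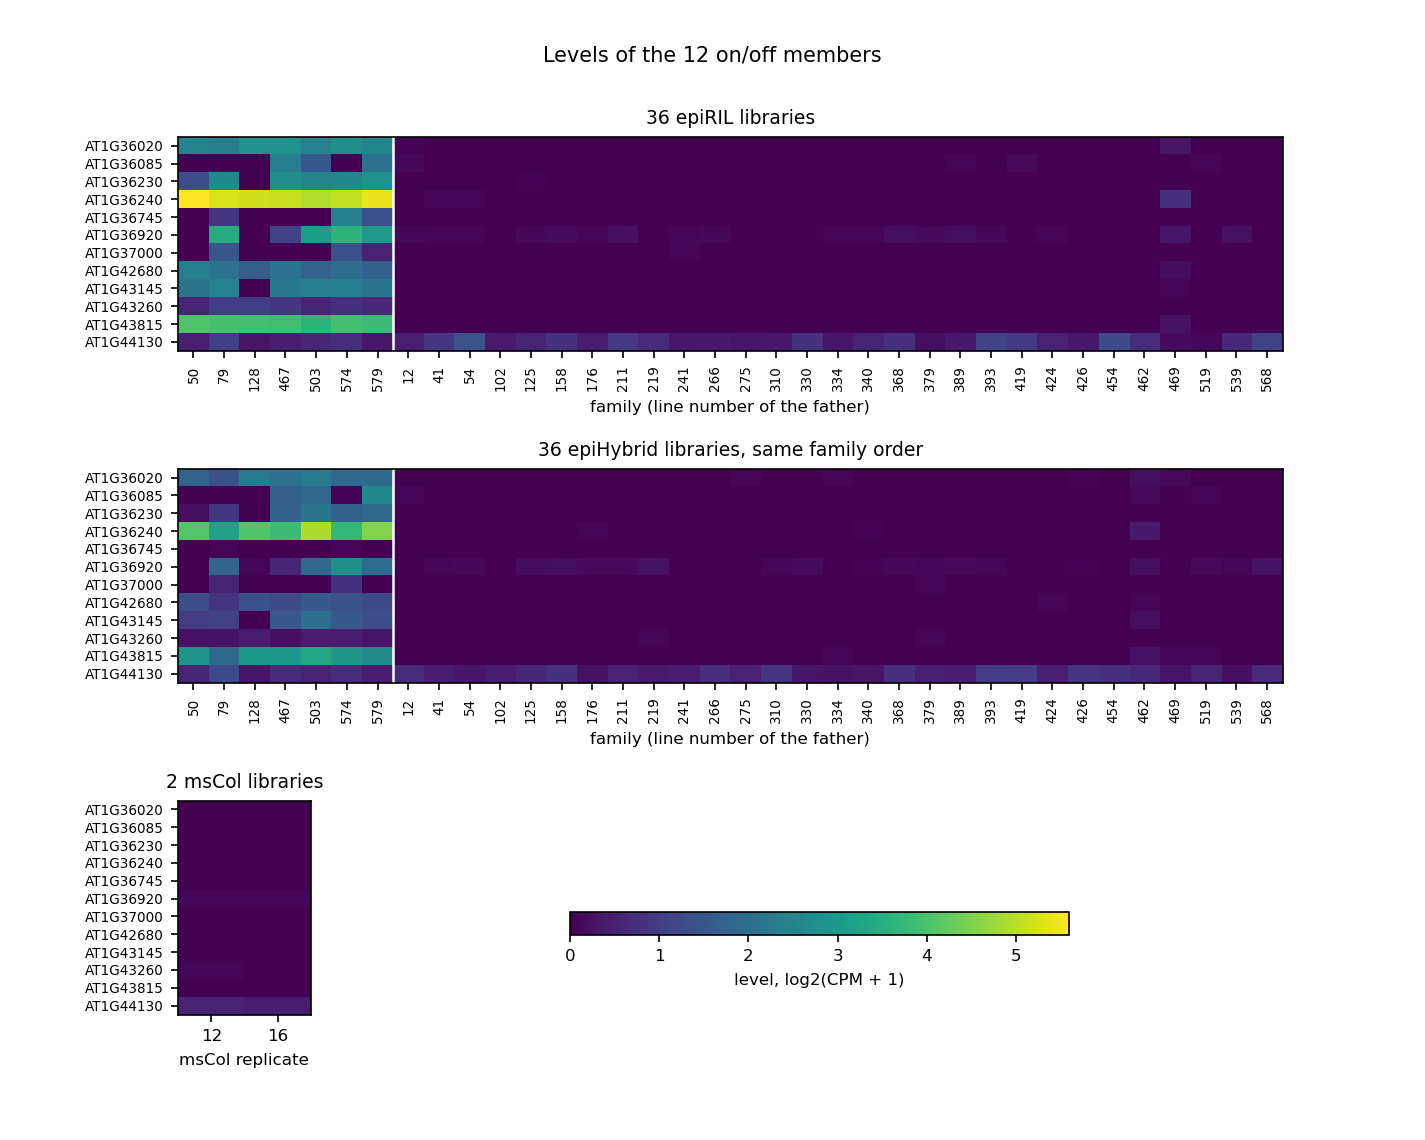
Levels of the 12 on/off members as log2(CPM + 1) (colour), with 1 row per gene and 1 column per library, for the 36 epiRILs, the 36 epiHybrids in the same family order and the 2 msCol libraries. The 7 families left of the white line hold the active block, with AT1G36240 (29.8 to 47.3 CPM in the fathers) as its brightest row, and the same families are active in the epiHybrids at a lower level.

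The remaining on/off members were active in fewer lines, most of them drawn from the same 7. AT1G36920, uncharacterized, had 10.1 CPM in epiRIL 79, 7.50 in 503, 11.5 in 574, 7.09 in 579 and 1.21 in 467, and 0 counts in 50 and 128. AT1G36745, uncharacterized, had 4.32 CPM in 574, 1.58 in 579 and 0.810 in 79, and with AT1G36920 it made up a second block of 2 genes. AT1G37000, a beta-galactosidase related gene, had 1.79 CPM in 79, 1.58 in 574 and 0.433 in 579. The mutator-like transposase AT1G36085 had 4.27 CPM in 467, 3.29 in 579 and 1.89 in 503. All of its exon sequence has matches of at least 95% identity elsewhere in the genome, so these reads cannot be assigned to this copy with certainty. The aspartyl protease gene AT1G44130 met the on/off limits without being split, since its levels filled the range from 0.0487 to 1.69 CPM. No pair of members was active in opposite lines.

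The 7 lines also marked genes around the members. Among all on/off or 2-level genes with at least 3 high and 3 low lines (312 genes), 24 shared at least 0.7 of their high lines with the block (shared lines over the union). All 24 lay on chromosome 1, 7 of them being the block genes, which share these lines by construction, and 17 being outside the list by number or by the last digit, and none lay on another chromosome. They spanned 9574550 to 17844900 (8.27 Mb). The set of lines shifted with distance: at 17261860 to 17535551, AT1G46696, AT1G47265, AT1G47657 and AT1G47660 were high in the 7 lines and also in 176 and 424, at 17844350 AT1G48285 was high in the 7 lines and 176, and at 12402283 to 13006187 AT1G34070 (a Copia-like retrotransposon), AT1G06883 and AT1G35375 lacked line 128. AT1G27565, the farthest of them, was high in the 7 lines and in 158, 310 and 469. At 11102314 to 11103644, the overlapping genes AT1G31095 and AT1G06407 lacked lines 128 and 574. Single genes also departed from their neighbours, since line 50 was missing at AT1G36078, AT1G36272 and AT1G06967, which lie between genes that it expressed, and line 128 was missing at AT1G36230 and AT1G43145.

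The spread of all members together was close to that of other genes in its median and wider in its upper end. The median SD among epiRILs on the log2(CPM + 1) scale was 0.208 over the 102 members and 0.201 over all genes, and 17 members had an SD of at least 0.5, beside 5.08% of all genes. Of these 17, 8 were on/off and 9 were not. Among epiHybrids the medians were 0.276 and 0.260. Of the members, 78 had at least 1 CPM in all 74 libraries. The 5 of these with the largest SD were ILL6 (0.84), ACC2 (0.56), TED6 (0.55), FTM1 (0.55) and PRP40A (0.54).

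**Figure D2:**
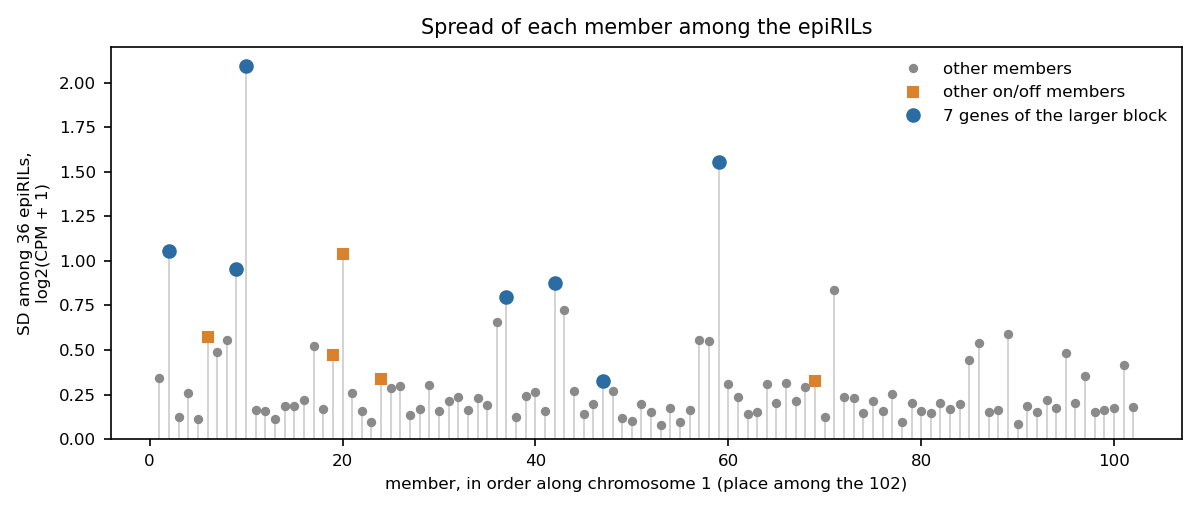
SD of log2(CPM + 1) among the 36 epiRILs for each of the 102 members, in their order along chromosome 1. The 7 block genes (blue) reach 2.09 at AT1G36240 and lie on both sides of members with an SD near the median of 0.208.

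ILL6, an IAA-amino acid hydrolase-like gene of auxin and jasmonate conjugate metabolism, was the only 2-level member that was not on/off. Its epiRIL levels ran from 3.10 CPM (line 176) over a median of 18.1 to 75.5 CPM (line 266). Lines 176 and 574, at 3.10 and 3.18 CPM, were separated by the gap from the next line, 579, at 9.03 CPM. Their epiHybrids had 8.46 and 9.94 CPM, against a median of 17.9 over epiHybrids, and 8.46 CPM was the lowest of the 36. At the upper end, the epiRIL of 125 had 70.3 CPM and its epiHybrid 50.5, but 266 went from 75.5 to 23.7 CPM and 219 from 16.2 to 67.7 CPM. The fathers 176 and 574 thus had low epiHybrids, while the epiHybrid of 579 had 21.4 CPM, above the median of epiHybrids. High levels were shared in some families and not in others.

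ACC2, a plastid acetyl-CoA carboxylase of fatty acid synthesis, ranged from 2.10 to 13.6 CPM among epiRILs, with its 3 lowest lines 568, 539 and 454 at 2.10, 2.78 and 2.90 CPM. PRP40A, a pre-mRNA processing factor, was lowest in the same 3 lines, at 8.27, 9.17 and 8.89 CPM, against a median of 25.2. The epiHybrids of 568 and 454 were also low for both genes (2.82 and 2.48 CPM for ACC2, 10.2 and 10.2 CPM for PRP40A), while that of 539 was not (9.36 and 23.9 CPM). Some of the lowest epiHybrids came from fathers that were not low, as for ACC2 in 340 (9.48 to 1.62 CPM) and for PRP40A in 310 (22.0 to 4.53 CPM), and neither gene was called for the relation with the father (adjusted p = 0.063 for both by permutation test). The libraries of family 568 went against their labels. The epiHybrid of 340 stood apart over all tested genes (median correlation 0.938 with the other libraries). The library of epiRIL 454 had the lowest such value (0.951) of the 72 libraries other than epiHybrids 340 and 368. How far the levels of ACC2 and PRP40A in these families follow the whole library was not tested. FTM1, of the stearoyl-acyl carrier protein desaturase family, ranged from 2.46 (line 266) to 14.1 CPM (line 219), with 12.6 CPM in 579 and 12.1 CPM in 50, and msCol 12 and 16 had 9.26 and 2.44 CPM. PRP40A overlaps another annotated gene, and whether the counting used strand is not given in the sources used here, so reads of the overlap cannot be assigned.

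The members at the highest level per exon length were GAPB (746 CPM per kb of exon), NPQ4 (652), NIA2 (181), RPL3A (170, symbol RP1 in the annotation) and AT1G42960 (128). GAPB encodes a subunit of the chloroplast glyceraldehyde-3-phosphate dehydrogenase of the Calvin cycle, NPQ4 the photosystem protein PsbS that is needed for the quenching of excess light energy, NIA2 the main nitrate reductase of leaves and RPL3A a ribosomal protein of the large subunit. AT1G42960 encodes a protein of the chloroplast inner membrane. Their levels among epiRILs had no on/off pattern: GAPB ranged from 1010 to 2069 CPM (median 1369), NPQ4 from 854 to 1715 (median 1178) and RPL3A from 219 to 537 (median 297). In epiHybrids the medians were 1343, 1228 and 295 CPM, and in both msCol libraries GAPB had 1377 and 1209, NPQ4 1101 and 931 and RPL3A 312 and 213 CPM. None of these 3 genes was called in a comparison of groups.

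The members were next followed from father to epiHybrid. For the 12 on/off genes, 59 pairs of gene and family had a father at 1 CPM or more, and in 51 of them (86.4%, 95% exact binomial interval 75.0 to 94.0%, counting the pairs as if they were independent, although the genes share families) the epiHybrid had at least 0.5 CPM. Of the 325 pairs with a father at 0.1 CPM or less, 0 epiHybrids reached 0.5 CPM. At these limits, an active state of these 12 genes was thus never seen in an epiHybrid whose father was off. The genes had been picked by their levels in epiRILs, so a gene active only in epiHybrids could not enter. These shares were not computed over the on/off genes of the whole series. With 1 CPM as the limit in the epiHybrid, 44 of 59 (74.6%) were on.

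The level in the epiHybrid was lower than in its father. Over the block genes there were 42 pairs with an on father, and the epiHybrid was below the father in all 42. With msCol at or near 0 the arithmetic mid-parent value lies at 0.5 of the father, and the ratio was below 0.5 in 27 of the 42 pairs. These pairs come from 7 families whose genes share the same libraries, so they are not independent. The median ratio of epiHybrid to father was 0.449 and the median divergence from the mid-parent was -10.2%. The mean over families of the median ratio in each was 0.466 ± 0.182 (SD, n = 7 families), and without families 79 and 503 it was 0.445 ± 0.0566 (n = 5). These values come from families picked by the state of the father and carry no test.

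For AT1G36240 the epiHybrids had 16.2 CPM in family 50, 8.29 in 79, 15.9 in 128, 13.2 in 467, 29.01 in 503, 12.2 in 574 and 22.2 in 579. The epiHybrid of 503 was almost level with its father (29.8 CPM), and that of 79 was at 0.218 of its father. For AT1G43815 the same families had 6.43, 2.82, 6.88, 6.93, 9.10, 6.77 and 5.30 CPM, with 79 again lowest and 503 highest. For AT1G36020 they had 2.47, 1.61, 4.02, 3.33, 3.91, 2.74 and 2.80 CPM. All 7 epiHybrids of each gene lay above the 29 others, of which the highest, for AT1G36240, AT1G43815 and AT1G36020 alike, was that of family 462 with 0.3005, 0.2003 and 0.1502 CPM and a father at 0 counts.

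**Figure D3:**
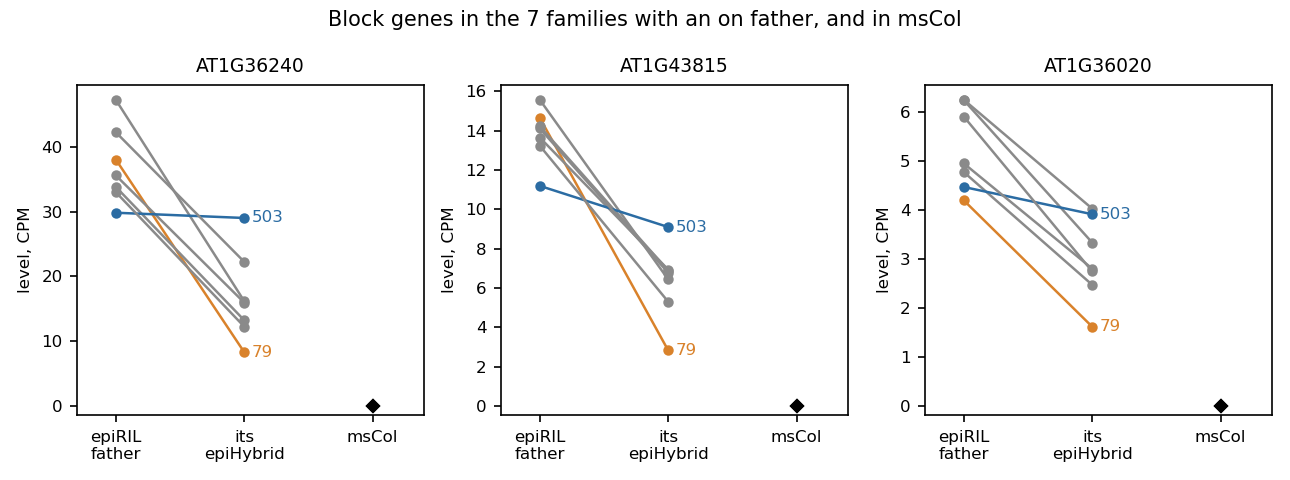
CPM of AT1G36240, AT1G43815 and AT1G36020 in the 7 active epiRILs (left), their own epiHybrids (middle, joined by lines) and the 2 msCol libraries (right, both at 0). Grey lines run to lower levels in the epiHybrids, family 503 (blue) stays near its father (29.82 to 29.01 CPM for AT1G36240) and family 79 (orange) reaches the lowest level (38.04 to 8.29 CPM).

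Families 79 and 503 had the lowest and the highest median over the block. The median ratio of epiHybrid to father was 0.218 in 79 (0.169 to 0.385 over 7 genes) and 0.815 in 503 (0.727 to 0.973 over 6 genes), against 0.346 in 50 (0.119 to 0.518 over 6 genes), 0.459 in 467, 0.459 in 574, 0.478 in 579 and 0.484 in 128. The ranges of 79 and 50 overlapped, and at AT1G36230 family 50 was the lower of these (0.119 against 0.169). At the 6 genes that separate msCol from epiRILs, which are not members, the epiHybrid of 79 lay nearest to msCol of all 36 (0.882) and that of 503 at 0.235, while the epiHybrids of 50, 128, 467, 574 and 579 lay between 0.414 and 0.509. The 6 genes are AT1G50290, AT5G23020, AT2G01422, AT5G20450, AT5G24570 and AT5G17880. Those starting with AT5G share a chromosome with the ms1 mutation and the Ler segment of msCol, so the 6 are not independent markers. For AT1G50290, the first of these genes, the epiHybrid of 79 had 117 CPM and that of 503 had 35.9 CPM, with 107 and 129 CPM in msCol and 6.55 and 22.6 CPM in the fathers. The part of this in the ratios of the block genes was not tested.

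**Figure D4:**
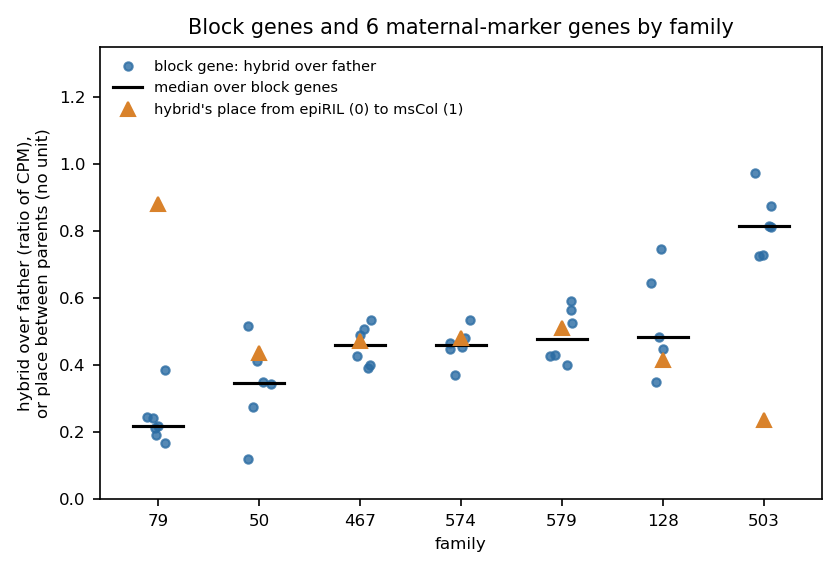
Ratio of epiHybrid CPM to father CPM for each block gene with an on father (blue points), its median (black bar), and the place of the epiHybrid on the scale from epiRIL (0) to msCol (1) at 6 other genes (orange triangles), by family. Family 79 has the lowest median ratio (0.218) and the highest triangle (0.882), and family 503 the highest median ratio (0.815) and the lowest triangle (0.235), while the lowest single ratio (0.119) belongs to family 50.

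Some genes departed from the block in the epiHybrids. AT1G36745 was silent there although its father was active: the epiHybrid of 574 had 0.0686 CPM (3 counts) from a father at 4.32 CPM, and that of 579 had 0 counts from a father at 1.58 CPM. AT1G36230 went from 1.51 to 0.18 CPM in family 50, a ratio of 0.119, whereas AT1G36240 beside it had a ratio of 0.342 in that family. The transposase AT1G36085 stood higher than in its father in 503 (1.89 to 2.70 CPM) and in 579 (3.29 to 5.12 CPM) but not in 467 (4.27 to 2.23 CPM). AT1G37000 had 0.754 CPM in the epiHybrid of 574, 0.458 in that of 79 and 0 counts in that of 579. AT1G42615, a member that was active in a single line, had 14.5 CPM in epiRIL 79 and 2.602 CPM in its epiHybrid, and had 0 counts in all other libraries. It is annotated as a factor of RNA polymerase I, and a close copy covers 37.5% of its exons.

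The relation between fathers and epiHybrids over all 36 families was measured by Pearson's r of log2(CPM + 1) for each of the 19383 genes, with 100000 shuffles of the pairing (one-sided) and Benjamini-Hochberg adjustment over all genes. It was called in 25 of 102 members, beside 18.0% of all genes, and the median r was 0.294 over members and 0.273 over all genes. In 14 of the 25 the fathers fell into separate clusters, so no r is given for these. Beside the on/off genes except AT1G44130 they comprised AT1G36005, ILL6 and the stress transcription factor gene BZIP60. The other 11 called members were graded.

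The 6 graded members with the highest r were AT1G36675, TED6, AT1G45545, SEU, AT1G36070 and HCS2. AT1G36675, a glycine-rich protein gene, ranged from 0.196 over a median of 1.04 to 4.39 CPM among epiRILs, and from 0.330 over 1.07 to 3.27 CPM among epiHybrids. Its r was 0.781 (adjusted p = 7.3e-04 by permutation test, n = 36 families; Spearman's rho = 0.770, permutation p = 1e-05, the smallest value that the shuffles can give), and 0.689 without the 2 fathers farthest from the median. Its 2 highest fathers were 574 and 503 (4.39 and 4.29 CPM), and 6 of the 7 lines of the block were among its 7 highest, with the 7 block lines at 1.40 to 4.39 CPM and the others at 0.196 to 2.81 CPM. TED6, which takes part in secondary wall formation of water-conducting vessels, ranged from 1.53 to 12.9 CPM among epiRILs and from 1.83 to 13.1 CPM among epiHybrids, with family 568 highest in both groups. Its r was 0.720 (adjusted p = 7.3e-04 by permutation test, rho = 0.678, permutation p = 3e-05), and 0.678 without the 2 extreme fathers. After removal of 5 principal components of all genes, r was 0.660 for AT1G36675 and 0.506 for TED6, both still called.

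The other 4 had a lower r. SEU, a transcriptional co-regulator of flower development, had r = 0.536 (rho = 0.498, permutation p = 0.0011), but r = 0.331 without the 2 extreme fathers and 0.254 after removal of the components, where it was no longer called. AT1G45545, related to proteins of chloroplast movement in blue light, had r = 0.550 (rho = 0.342, permutation p = 0.022) and lost its call without the 2 extreme fathers (r = 0.378). Its r was 0.587 after removal of the components, where it was still called. Over all genes, leaving out the 2 extreme fathers of each gene lowered the share called from 18.0% to 5.39%. SEU and AT1G45545 overlap other annotated genes, and their adjusted p was 0.016 and 0.0152 by permutation test. AT1G36070, a WD40 repeat protein gene, had r = 0.518 (rho = 0.538, permutation p = 3.8e-04; 0.494 without the 2 extreme fathers), and HCS2, a holocarboxylase synthetase, which attaches biotin to carboxylases, had r = 0.477 (rho = 0.525, permutation p = 5.2e-04; 0.480 without them) and lost its call after removal of the components (r = 0.371). The adjusted p of these was 0.0146 and 0.0259 by permutation test.

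**Figure D5:**
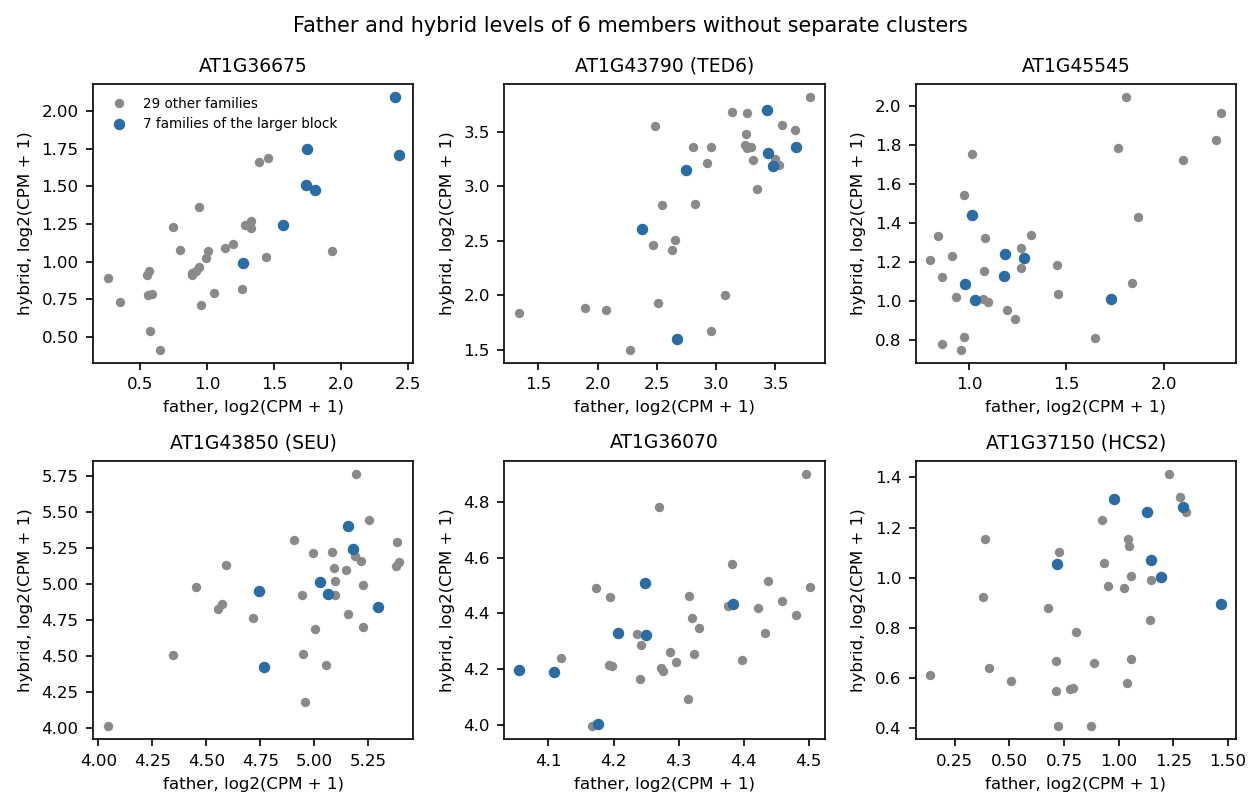
Father against epiHybrid levels on the log2(CPM + 1) scale for the 6 graded members with the highest r, 1 point per family (36), with the 7 families of the block in blue. AT1G36675 (r = 0.781) has the block families at its upper end, and in TED6 (r = 0.720) they are spread over the range.

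UBC15, a ubiquitin-conjugating enzyme gene, was also called (r = 0.431). In 5 of the 7 block lines it was among the 7 lowest epiRILs, with 14.1 to 18.9 CPM in the block lines (median 16.6) and 17.7 to 22.4 CPM in the others (median 20.8). The ranges overlapped, and the lines had been picked by the block genes, so no test was made. UBC15 was not alone in this order. AT1G38065 also had 5 block lines among its 7 lowest, and AT1G36940, AT1G36980, AT1G43710 and AT1G44960 had 4. In the other direction, AT1G43980 and AT1G45170 had 4 block lines among their 7 highest, beside AT1G36675 and AT1G36005 described above. Close copies cover 95.2% of the exons of AT1G38065 and 14.3% of those of AT1G36940, so their counts are less certain. These orders were not counted over all genes.

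The variance of log2(CPM + 1) among epiRILs was set against that among epiHybrids by 100000 random exchanges of father and epiHybrid within families. It was called in 0 of 102 members, beside 0% of all genes, and 19 members had an unadjusted permutation p under 0.05, beside 2588 of 19383 genes. The ratio was above 1 in 27 members, with a median of 0.637 over the members and 0.627 over all genes. Without families 340 and 368, whose epiHybrids stood apart, the median over all genes was 0.816. Genes with an unadjusted permutation p under 0.05 then fell from 2588 to 1237. Its values for block genes were 1.64 for AT1G36240, 1.86 for AT1G43815 and 1.77 for AT1G36020. The unadjusted permutation p of the 7 block genes lay between 0.003 (AT1G36020) and 0.0235 (AT1G36230). The block genes had been picked by their levels among epiRILs. These p-values therefore reuse the values of the choice and are no support for a wider spread.

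Group means differed in few members. Between epiRILs and msCol, edgeR's quasi-likelihood test over all 74 libraries called 1 member higher in epiRILs (0.980%), beside 1.19% of all genes, and 2 lower (1.96%), beside 1.56% of all genes. The median log2 fold change was 0.08 over members and 0.02 over all genes. NIA2, the nitrate reductase gene, had 284 to 854 CPM in the epiRILs (577 ± 106, SD, n = 36) and 946 and 955 CPM in msCol, so that all 36 epiRILs were below both msCol libraries. Its log2 fold change was -0.72 (SE 0.18, adjusted p = 0.015). AT1G36060, which encodes ERF055, a transcription factor of the ethylene response factor family, had 0.596 to 3.12 CPM in epiRILs (1.30 ± 0.451) and 3.46 and 5.62 CPM in msCol, again with all 36 epiRILs lower. The log2 fold change was -1.80 (SE 0.27, edgeR adjusted p = 4.9e-06). AT1G45010, annotated with a TLC lipid-sensing domain, was higher in epiRILs, at 16.8 ± 2.21 CPM against 10.95 and 9.053 CPM in msCol, with 35 of 36 epiRILs above both of these. Its log2 fold change was 0.75 (SE 0.21, edgeR adjusted p = 0.037). Without msCol 12 AT1G36060 was still called (log2 fold change -2.11), while NIA2 (-0.73) and AT1G45010 (0.89) were not. Without msCol 16 none of the 3 was called, at -1.41 for AT1G36060, -0.71 for NIA2 and 0.62 for AT1G45010. None of the 12 on/off genes was called by edgeR. DESeq2 called 7 members higher, AT1G45010 and 6 block genes with 0 counts in msCol.

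Between epiHybrids and epiRILs, with the family as a block in edgeR, 0 members were called in either direction, beside 0.371% of all genes higher and 0.939% lower. At an unadjusted edgeR p under 0.05 there were 18 of 102 members, beside 1922 of 19383 genes, and DESeq2 also called 0 members. On/off genes came closest to a call: AT1G36745 of the second block (log2 fold change -4.20, SE 0.72, edgeR adjusted p = 0.060), and from the larger block AT1G36230 (-1.41, SE 0.33, adjusted p = 0.073) and AT1G36240 (-1.18, SE 0.32, adjusted p = 0.099). Without the block (no replicate block) 1 member was called lower, AT1G36745, at an edgeR adjusted p of 8.3e-05, and the same gene was called without families 12 and 568 (adjusted p = 0.049). AT1G36745 passed the filter only through epiRILs, with at most 0.0723 CPM in epiHybrids. These on/off genes had been picked by their levels in epiRILs and had 0 counts in msCol. A lower level in epiHybrids was thus favoured by the choice, and these p-values are no support for it.

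Against the mid-parent, taken at the midpoint between the 2 parental groups in log2 units, 0 members were higher in epiHybrids, beside 0.330% of all genes, and 1 was lower (0.980%), beside 0.413% of all genes. At an unadjusted edgeR p under 0.05 there were 8 of 102 members, beside 2313 of 19383 genes. The member called lower was NIA2, at 288 to 758 CPM in epiHybrids (564 ± 103, n = 36), a log2 difference of -0.39 (SE 0.10, edgeR adjusted p = 0.045), with 34 of 36 epiHybrids below the mid-parent of their own family. The call was lost with the replicate block in limma-voom (-0.41), without either msCol library (-0.40 and -0.39), without families 79 and 503 (-0.38), without families 12 and 568 (-0.39) and with no low-count filter (-0.39). The epiHybrids and epiRILs themselves were not called for it (log2 fold change -0.03, SE 0.06), and the comparisons with msCol share the same 2 msCol libraries. DESeq2 called 4 members higher, AT1G36020, AT1G36240, AT1G42680 and AT1G43815, all of them block genes at 0 counts in msCol, where a fitted fold change is not bounded.

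The members fall into named pathways only in part, and 4 lists of genes in the interval were followed. Over all genes, 18.0% were called for the relation with the father, while epiRILs exceeded msCol in 1.19% and were below it in 1.56%. Of 14 genes of the chloroplast and primary metabolism, all members, NIA2 was the only one called between epiRILs and msCol, and 1 (the thioredoxin gene TRXY2) was called for the relation with the father. Of 11 genes of transcription and hormones, 8 were members, ERF055 was lower in epiRILs than in msCol, and 3 (BZIP60, SEU and ILL6) were called for the relation. Of 12 genes of translation, proteolysis and cell cycle, 10 were members, 0 were called in a comparison of groups and 2 (AT1G36240 and UBC15) were called for the relation, with AT1G36240 the only on/off gene of the 4 lists. Of 12 genes of transport, membranes and redox, 11 were members and 0 were called in any of these tests. The median log2 fold changes of the 4 lists between epiRILs and msCol were 0.08, -0.11, 0.07 and -0.08, beside 0.02 over all genes.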

How the data were processed

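RNA had been extracted from pooled rosettes (27 days after sowing) of 36 epiRILs, 36 epiHybrids and 2 msCol lines. The authors deposited raw counts per gene; their methods name Trim Galore, TopHat2 with the TAIR10 genome, and featureCounts, with versions, use of strand and treatment of multiply aligning reads not given in the sources used here. Counts of genes with close copies or overlaps are therefore uncertain. The table carries no coordinates, and positions, products and sequences come from the RefSeq annotation of TAIR10.1, to which all 102 members were matched. All columns belonged to samples of the series and no pair of columns was identical.

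Of 32833 genes, the 19383 that reached 1 CPM in 2 or more libraries were normalised by TMM and tested with edgeR 4.0.16 (quasi-likelihood, R 4.3.3), with DESeq2 1.42.0 and limma 3.58.1 as alternatives, with levels given as CPM of TMM-scaled library sizes (unscaled in the filter), and p-values were adjusted over all these genes by Benjamini-Hochberg at 0.05. epiHybrid against epiRIL used the family as a block; the other comparisons used group means over all 74 libraries. Library totals were 38130406 to 42206920 counts, and 1 count was about 0.0245 CPM. Reads were counted without molecular identifiers, so floors cover counting error only. The binomial interval treats pairs of gene and family as independent draws and does not cover error in the counting of reads. The numbers pair the libraries by parentage: the deviations of an epiHybrid and its own father from the group means correlated by 0.424 ± 0.277 (SD, n = 36) over genes, above 0.1 in 30 families.

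The members and gene lists were chosen with earlier results of these data known. Named genes were the 12 on/off members, the genes of blocks of 3 or more, up to 5 called members with the largest change per direction, the 6 called members with the highest r among those without separate clusters (no gap of 0.25 of the range or more between fathers), the 5 most variable members among those with at least 1 CPM in all libraries and the 5 highest per exon kb. Others were named after their values had been seen. Blocks joined genes sharing at least 0.7 of their high lines. Close copies were found with BLAST 2.17.0 (at least 95% identity over at least 100 bases). Alternatives changed the normalisation, the filter, the test, the block, the scale and the limits, and left out families or an msCol library. The edgeR tests were run on simulated data first, with 19383 genes of which 200 were changed 2-fold. Of the changed genes, edgeR recovered 100% for epiHybrid against epiRIL, 99% against the mid-parent and 50% for epiRIL against msCol. It also called 11, 11 and 4 unchanged genes in these comparisons. Recovery of genes with an on/off pattern was not tested.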

Additional observations from a re-analysis of the deposited data

How the results depend on the processing

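Of the results that answer a comparison, 61 values over the alternatives stayed within 1.5 times the main count or within its interval and 22 moved. For the 10 values of single genes with a test, 77 alternatives kept direction and call, 16 kept the direction and lost the call, and 0 reversed. Between epiRILs and msCol, members higher were 1, 0 with no low-count filter, 7 with DESeq2 (6 of them block genes) and 0 without either msCol library (range 0 to 0), and members lower were 2, 4 with only the 2 groups compared, and 0 to 1 without an msCol library. Between epiHybrids and epiRILs, members lower were 0, 1 with no replicate block and 1 without families 12 and 568. Against the mid-parent, members higher were 0 and 4 with DESeq2. Members lower were 1 (NIA2), 0 with no low-count filter, 0 without an msCol library (range 0 to 0), 0 without families 79 and 503, 0 without families 12 and 568, and 2 with the 36-library filter, without families 340 and 368 and with DESeq2. With the replicate block in limma-voom it was 1, but AT1G36060 took the place of NIA2. The relation between father and epiHybrid was called in 25 members, in 11 of the 85 left by the 36-library filter (15.9% of all genes left), in 40 without families 340 and 368 (31.6% of all genes) and in 16 without the 2 extreme fathers of each gene (5.39%). With the 36-library filter the block genes were no longer among the genes tested. The causes of the other shifts were not tested. Over all genes, the calls between epiRILs and msCol (231 higher and 302 lower) were 529 and 535 with only the 2 groups compared, 449 and 447 without families 340 and 368, 484 and 308 with DESeq2, 85 and 135 without msCol 12 and 63 and 65 without msCol 16. Those against the mid-parent (64 and 80) were 174 and 161 without families 340 and 368, 264 and 129 with DESeq2, 17 and 28 without msCol 12 and 21 and 51 without msCol 16. Those between epiHybrids and epiRILs (72 and 182) were 62 and 103 with no replicate block. The share of epiHybrids on for an on father was 86.4% and 74.6% with a limit of 1 CPM. The numbers of on/off members (8 to 13 against 12), 2-level members (6 to 13 against 9) and genes in the larger block (5 to 10 against 7) stayed within 1.5 times. The families left out other than 340 and 368 were chosen after seeing the data. For variance, 0 members were called under every alternative run. Over all genes, 3 were called with the wider spread in epiRILs and 3 in epiHybrids without families 12 and 568, and 0 under the other alternatives. Having 2 msCol libraries limits what can be called against them.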

Other observations

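Line 469, outside the 7, had low counts of several block genes: 30 counts of AT1G36240 (0.727 CPM), 9 of AT1G36020 (0.218 CPM), 8 of AT1G43815 (0.194 CPM) and 6 of AT1G42680 (0.146 CPM). Its epiHybrid had 0 counts of AT1G36240 and AT1G42680, 4 of AT1G36020 and 3 of AT1G43815. The epiHybrid of 462, whose father had 0 counts of each, had 12 counts of AT1G36240, 6 of AT1G36020, 6 of AT1G43145 and 8 of AT1G43815.Outside the list, genes without an annotated function that were high in most of the same lines reached up to 12.7 CPM for AT1G06963, 11.6 CPM for AT1G36272 and 10.8 CPM for AT1G47657 among epiRILs.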
